A study of Mus musculus with 24 samples.

Results

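The potassium channel genes described here were the genes of the deposited expression table whose symbols start with *Kcn*, other than *Kcnj8*, *Kcnj13* and those on Chr 17. They numbered 64 of the 13998 genes in the table. The rule left out 4 of 68 *Kcn* symbols, and it used names and positions only, not expression. The genes fell, by symbol, into 13 voltage-gated pore subunits, 8 voltage-gated modifier subunits, 5 genes of the ether-a-go-go group, 3 of the M-current group, 10 inward rectifiers, 7 leak channels with a pair of pore domains in each subunit, 6 calcium- and sodium-activated channels, and 12 accessory genes. The accessory genes include *Kcnq1ot1*, a long noncoding RNA antisense to *Kcnq1* and not a channel subunit.

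Expression was measured by serial analysis of gene expression with high-throughput sequencing (SAGE-Seq) in the hypothalamus of 24 adult male F2 mice, 1 library per mouse. Of these, 12 were *cast/cast* and 12 *b6/b6* across a Chr 17 subcongenic segment, and every mouse was *b6/b6* elsewhere in its genome. All mice had chosen between a carbohydrate/protein (C/P) and a fat/protein diet for 10 d, were returned to chow, and were killed about 48 h after the choice of diets was restored. The mice were picked by the study for their intake, namely *cast/cast* mice with high and *b6/b6* mice with low kcal from the C/P diet, so genotype and C/P intake cannot be told apart in a comparison of the genotypes. The study also names total kcal in this choice. Total intake ran from 104 to 133.1 kcal in *cast/cast* and from 94.8 to 120.2 kcal in *b6/b6* mice, so it was partly tied to genotype.

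Potassium channels let potassium leave or enter cells along its gradient, and so set the resting potential, end the action potential and shape firing. Pore subunits assemble into channels, modifier and accessory subunits change the gating or surface level of those channels, and glial inward rectifiers take up potassium released by firing neurons. In the hypothalamus, channels formed by *Kcnj11* and *Abcc8* close when ATP rises and are known for coupling glucose to firing, and M-current channels are targets of transmitters that control feeding.

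Each library counted 27-base tags that start at the CATG nearest the polyadenylated end of a transcript. Tags were predicted from the GENCODE transcripts of GRCm38 for all 64 genes. Of these, 61 lay in a 3′ UTR, 2 in coding sequence and 1 in a noncoding exon, and none occurred as the predicted tag of a transcript of another gene. A transcript gives a single tag whatever its length, so levels of different genes are set side by side without a division by length, although tags of different sequence may be recovered unequally. The lines that follow give the predicted tags of the genes on which the results turn, 5′ to 3′ on the transcript strand, with the restriction site in capitals. Their labels on intake describe limma fits over all mice. The slope differences of *Kcnc1*, *Kcnk3* and *Kcnd2* did not reach an adjusted *P* of 0.05 without *b6/b6* mouse 12. For the slope of *Kcns2* on total intake the adjusted *P* in limma was 0.485.
*Kcnd3*, the most abundant gene, chr3:105673918-105673944, plus strand: CATGtatatcatttacagtactgagtc
*Kcnj10*, the glial inward rectifier, chr1:172373840-172373866, plus strand: CATGctagctaacctagtttctttgca
*Kcnn3*, the gene with the lowest *P* between genotypes, chr3:89667515-89667541, plus strand: CATGtcctttcagcgtgctttgttcga
*Kcns2*, lower with total intake, chr15:34843338-34843364, plus strand: CATGactgacatactcaggatgccagc
*Kcnc1*, with unlike slopes on C/P intake in the genotypes, chr7:46433154-46433180, plus strand: CATGgtgccagagtttccctaatagct
*Kcnk3*, with unlike slopes on C/P intake in the genotypes, chr5:30625061-30625087, plus strand: CATGcaggcagcctttctgcttcccca
*Kcnd2*, with unlike slopes on C/P intake in the genotypes, chr6:21729410-21729436, plus strand: CATGttcctaataggacataaaacaac
All of these 7 tags lie in a 3′ UTR and inside the position that the deposited table gives for the gene, as did 57 of the 64 predicted tags. The tags counted for each gene from RefSeq mRNA are not given in the sources used here, so they may differ from those predicted. The position is the whole span of a gene, so lying inside it does not show which tag was counted. For *Kcnn3*, 220 bases follow the predicted tag in its transcript, whereas the position in the deposited table ends at 89672494. A CATG nearer that end is therefore possible. For 7 genes, *Kcnk10* among them, the predicted tag lies outside the position in the deposited table. *Kcnd3*, *Kcnc1* and *Kcns2* are among the 11 of 64 genes with more than 1 predicted tag, the others coming from other annotated transcripts.

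Libraries held 7754202 to 13082873 tag hits, and the potassium channel genes took between 0.250% and 0.430% of them. Values are normalized counts, which are tag hits divided by the size factor of the library. Of the 24 libraries, 4 stood apart from the others by their correlation across genes, namely *cast/cast* mice 4 and 6 and *b6/b6* mice 6 and 12, and values without them are given where a call or a value depends on them. The first principal component of log2 values over genes outside Chr 17 held 36.7% of the variance. Of the markers listed for the hypothalamus, 10 of 10 were in the table and their summed level ran from 5311 to 29936 normalized counts in *cast/cast* and from 10153 to 28228 in *b6/b6* mice, with *Pmch* giving 54.1% of the sum. The tissue is bulk, so fewer cells of a type and less RNA per cell cannot be told apart.

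The potassium channel genes spanned a wide range of levels, from a mean of 6.56 normalized counts for *Kcnk6* to 4406 for *Kcnd3*. Of the 64 genes, 12 had a mean of at least 1000 and 10 a mean below 20, and the 5 most abundant carried 45.7% of the summed signal. In 8 genes at least 1 mouse had no more than 3 tag hits, the smallest signal taken as detectable.

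Among the voltage-gated pore subunits, which carried 36.8% of the signal, *Kcnd3*, a pore subunit of the rapidly inactivating A-type current, led. Its values ran from 2414 to 6629 with a median of 4164 in *b6/b6* mice and from 2583 to 8740 with a median of 3461 in *cast/cast* mice. *Kcna2*, an axonal delayed rectifier subunit, followed with medians of 2089 in *b6/b6* mice and 2100 in *cast/cast* mice, and ranges of 1469 to 2837 and 1111 to 4712. For both genes the genotypes overlapped, and the highest mice were *cast/cast*. *Kcnb2*, with a mean of 48.1, was the lowest of these 13 subunits.

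The modifier subunits form no channel alone and alter the gating of other voltage-gated subunits. *Kcnf1* was far above the rest of this group, from 557 to 1773 in *b6/b6* mice and from 739 to 1445 in *cast/cast* mice, whereas the next, *Kcns3*, had medians of 94.2 and 70.4. In the ether-a-go-go group, *Kcnh2*, a subunit of slowly closing channels that oppose repeated firing, had medians of 322 in *b6/b6* mice and 320 in *cast/cast* mice, and *Kcnh1* medians of 167 and 190. Of the M-current group, *Kcnq5* had a mean of 270.3 and *Kcnq3* one of 18.5.

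Of the inward rectifiers, *Kcnj10*, the main potassium uptake channel of astrocytes, was highest with medians of 1594 in *b6/b6* mice and 1547 in *cast/cast* mice, ahead of its partner *Kcnj16* with 584 and 502. *Kcnj11*, the pore subunit of ATP-sensitive channels, had medians of 69.4 and 63.0, and *Abcc8*, their sulfonylurea receptor, medians of 23.4 and 21.7. *Kcnk2*, a leak channel opened by stretch and fatty acids, made up most of the leak channel signal, with medians of 1338 in *b6/b6* mice and 1310 in *cast/cast* mice. *Kcnk3*, a leak channel closed by acid, followed with medians of 182 and 155. Among activated channels, *Kcnma1*, the large-conductance calcium-activated pore subunit, had medians of 312 and 356 and the sodium-activated *Kcnt1* medians of 268 and 242.

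The accessory genes held 28.3% of the signal. *Kcnip4*, a calcium-binding subunit of A-type channels, had medians of 3781 in *b6/b6* mice and 4020 in *cast/cast* mice. *Kcnip3*, of the same family, had medians of 1714 and 1953, and *Kcnmb4*, the neuronal beta subunit of *Kcnma1* channels, medians of 1519 and 1690. In all 64 genes the ranges of the genotypes overlapped. The share over all genes was not counted, so this overlap is not read as a trait of these genes.

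**Figure D1:**
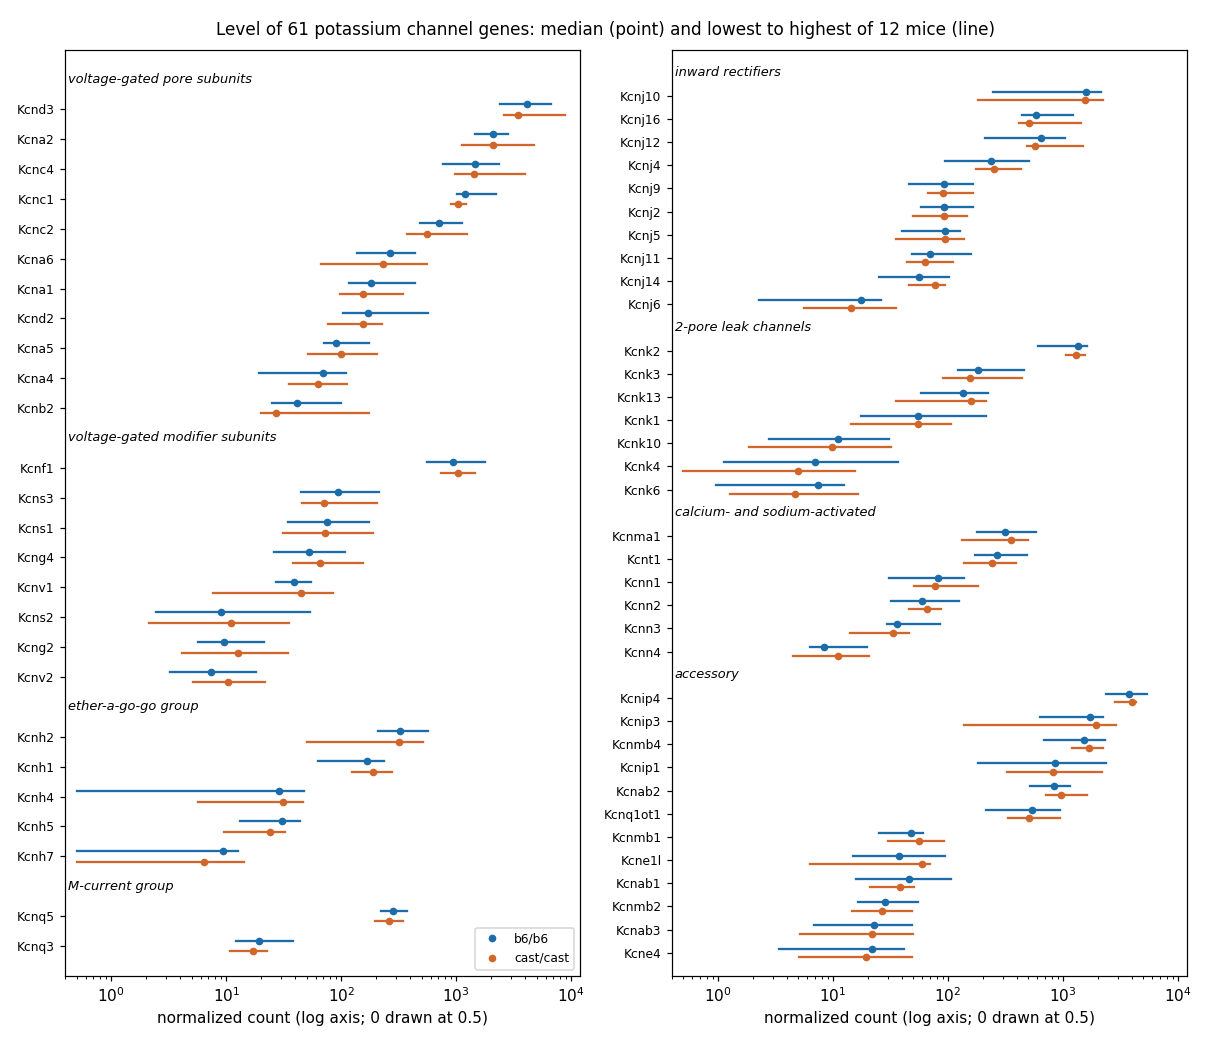
Normalized counts (horizontal log axis) of 61 potassium channel genes, grouped by family, with the median as a point and a line from the lowest to the highest of 12 mice in each genotype. The means run from 6.56 for *Kcnk6* to 4406 for *Kcnd3*, and the lines of the genotypes overlap for every gene plotted. Such overlap was not counted over all genes.

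The genotype comparison asked whether the *cast* segment on Chr 17 goes with a change of potassium channel transcripts encoded elsewhere. Besides C/P and total intake, study number was unevenly spread over the genotypes. The *b6/b6* mice had the higher median study number, 269.5, against 120.5 for the *cast/cast* mice. Genotype was therefore partly tied to study number in this comparison. None of the 64 genes met the threshold, an unadjusted *P* of at most 0.01 with a ratio of means of at least 1.5, in limma on log2(normalized count + 1). Of all 13998 genes, 208 met it (1.49%), and of 13364 genes outside Chr 17, 106 (0.793%). After adjustment the lowest *P* of a potassium channel gene was 0.586, whereas 80 of all genes stayed at or below 0.05 (0.572%). At an unadjusted *P* under 0.05 there were 3 potassium channel genes, 4.69% of the 64, and 8.13% of all genes. Under edgeR and DESeq2 on the recovered tag hits the number meeting the threshold was also 0, with 3 genes at an unadjusted *P* under 0.05 in each. The shares of all genes under these tools are not given here.

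The estimated differences pointed equally often each way, with 32 genes higher and 32 lower in *cast/cast* mice. The median log2 difference was 0.0045 for the potassium channel genes and -0.018 for all genes. With libraries rescaled to the same total these medians were -0.084 and -0.108. For 22 genes the 95% confidence interval of the difference lay inside a 1.5-fold change in either direction, and for 42 genes it reached beyond it, so a change of that size was not excluded for these 42 at this spread between mice. By family, the median log2 difference ran from -0.20 for the leak channels to 0.16 for the modifier subunits, and no family held a gene that met the threshold.

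The lowest *P* belonged to *Kcnn3*, a small-conductance calcium-activated channel that shapes pacemaking. Its values were 29.4 to 85.9 with a median of 35.9 in *b6/b6* mice, and 14.0 to 45.7 with a median of 33.2 in *cast/cast* mice. The highest value was that of *b6/b6* mouse 12, and the genotypes overlapped. The log2 difference was -0.46 ± 0.19 (SE, n = 12 and 12; limma, *P* = 0.026, adjusted *P* = 0.586). *Kcnj14*, an inward rectifier, ran from 25.2 to 101.3 with a median of 56.3 in *b6/b6* and from 46.3 to 93.5 with a median of 77.7 in *cast/cast* mice, a log2 difference of 0.44 ± 0.20 (limma, *P* = 0.039, adjusted *P* = 0.607). The highest value was again in the *b6/b6* group, although its median was the lower one. *Kcnc1*, a pore subunit that lets neurons fire rapidly, ran from 1005 to 2233 with a median of 1191 in *b6/b6* and from 902 to 1226 with a median of 1039 in *cast/cast* mice, a log2 difference of -0.26 ± 0.12 (limma, *P* = 0.042, adjusted *P* = 0.607).

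Others among the 10 genes with the lowest *P* were *Kcnh1* (log2 difference 0.40), *Kcnmb4* (0.26), *Kcnv2* (0.43), *Kcnd2* (-0.37), *Kcnh5* (-0.39) and *Kcnab1* (-0.34), with *P* from 0.053 to 0.133. The difference of *Kcnd2* became 0.0038 with 2 principal components as covariates. Without *b6/b6* mouse 12 the differences of *Kcnd2*, *Kcnmb4* and *Kcnab1* shrank to -0.22, 0.17 and -0.22. Without the 4 libraries that stand apart that of *Kcnc1* was -0.17, of *Kcnn3* -0.43, of *Kcnj14* 0.53, of *Kcnd2* -0.18, of *Kcnmb4* 0.088 and of *Kcnab1* -0.19. Of 24 listed genes whose proteins work with potassium channels, 22 were in the table and 0 met the threshold, with 7 higher and 15 lower. The lowest *P* of these, 0.056, was that of *Hcn4*, a pacemaker channel, with a log2 difference of -0.90 ± 0.45 and an adjusted *P* of 0.612 in limma. *Abcc8* differed by -0.38 ± 0.37 (limma, adjusted *P* = 0.766).

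**Figure D2:**
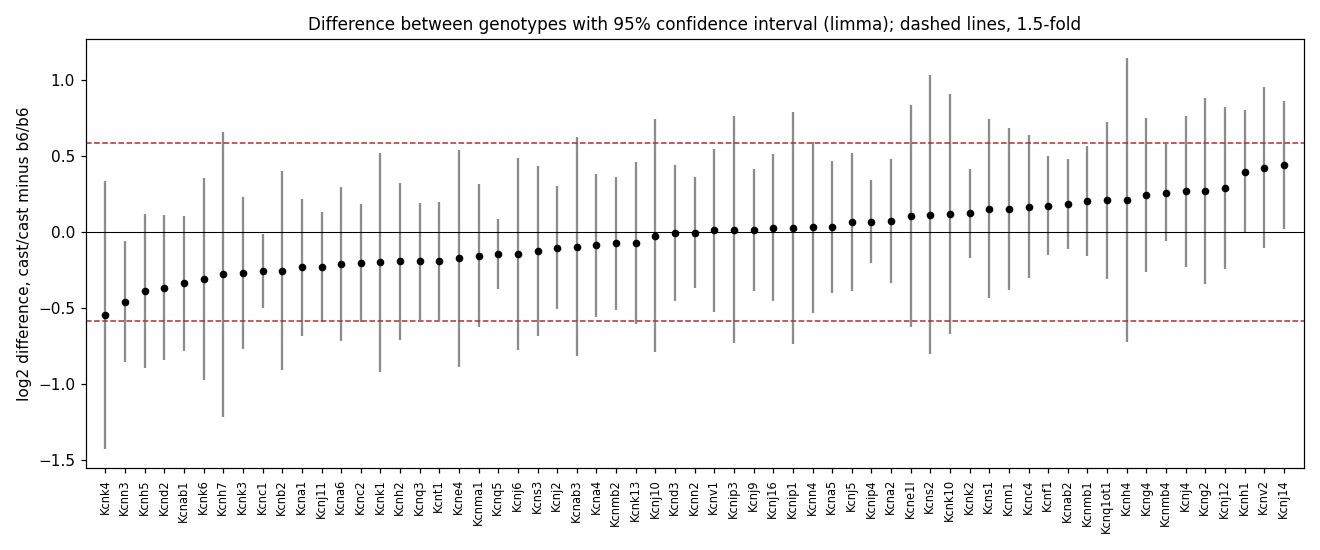
Log2 difference (vertical axis, *cast/cast* minus *b6/b6*) of each of 61 potassium channel genes with its 95% confidence interval from limma, ordered by size, with dashed lines at a 1.5-fold change. The intervals of *Kcnn3*, *Kcnc1* and *Kcnj14* leave out 0, and no interval lies wholly beyond a dashed line.

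Mice of the same genotype differed widely in many of these genes. The median SD of log2 values within genotype was 0.60 for the potassium channel genes and 0.57 for all genes. Among genes with a mean of at least 50, *Kcnj10*, *Kcnip1* and *Kcnip3* varied most, with SD of 1.0, 0.99 and 0.97, and *Kcnq5*, *Kcnc1* and *Kcnip4* least, with SD of 0.21, 0.26 and 0.30.

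The genes that varied most did so in unlike ways. *Kcnj10* was low in a few mice of both genotypes, at 182 in *cast/cast* mouse 9, 244 in *b6/b6* mouse 2, 442 in *cast/cast* mouse 6 and 541 in *b6/b6* mouse 4, and reached 2249 in *cast/cast* mouse 2. *Kcnip3* had its lowest value, 137, in *cast/cast* mouse 12 and its highest, 2867, in *cast/cast* mouse 1. *Kcnip1* ran from 183 to 2362 in *b6/b6* mice and from 325 to 2190 in *cast/cast* mice. *Kcnip3* was also low in *cast/cast* mouse 5, at 549, and in *b6/b6* mice 9, 4 and 12, at 635, 810 and 848. *Kcnq5* varied least, 1.88-fold between its lowest and highest mouse.

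A large part of the genes followed the first principal component. As a description over 24 mice that share their libraries with the component, r was at least 0.7 for 12 potassium channel genes and at most -0.7 for 4, together 25.0% of the 64, beside 25.2% of all genes. The highest r were those of *Kcnd3* (0.93) and *Kcnc4* (0.93), and the lowest those of *Kcnj5* (-0.79) and *Kcne1l* (-0.75). *Kcnd3* had 8078, 8740 and 6248 normalized counts in *cast/cast* mice 4, 6 and 5, at 1 end of the component, and 2414 and 2562 in *b6/b6* mice 12 and 6 at the other. *Kcnj5*, an inward rectifier coupled to G proteins, went the other way, with its lowest value, 35.6, in *cast/cast* mouse 6.

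**Figure D3:**
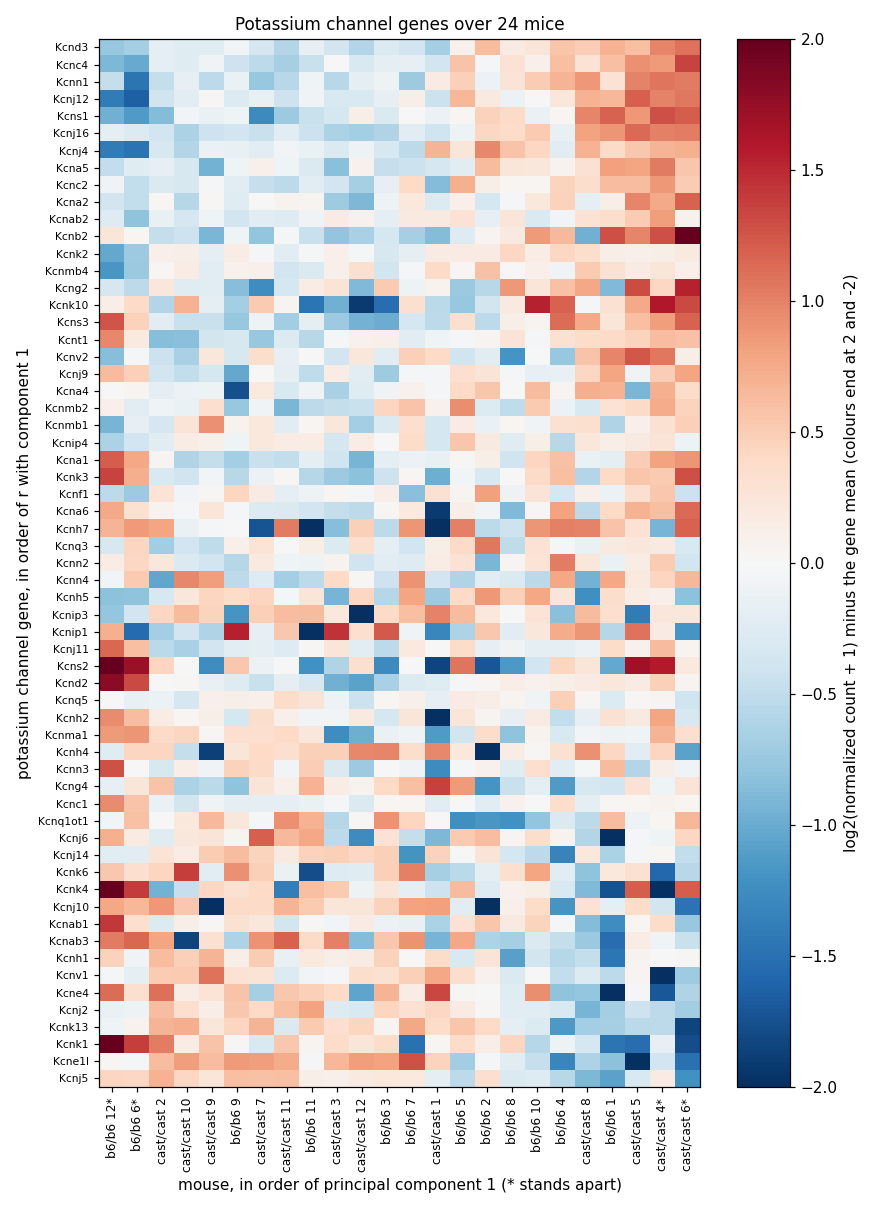
Log2(normalized count + 1) minus the gene mean (colour, ending at 2 and -2) for 61 potassium channel genes (rows, by r with the first principal component) in 24 mice (columns, by the component, asterisks for the 4 libraries that stand apart). *Kcnd3* and *Kcnc4* at the top are higher on the right and *Kcnj5* and *Kcne1l* at the bottom higher on the left, while *Kcnj10* and *Kcnip3* are each low in a few mice.

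Levels of several marker lists also moved with the component. The r of the log2 summed marker level with it was 0.92 for the striatum list, 0.79 for microglia, 0.68 for cortex and hippocampus, 0.63 for neurons, -0.67 for oligodendrocytes, -0.72 for the hypothalamus and -0.80 for endothelial and mural cells. For the other lists r was 0.48 for thalamus, 0.043 for red blood cells, -0.31 for astrocytes, -0.41 for pituitary and -0.45 for choroid plexus. In the striatum list, of which 4 of 5 genes were in the table, *Rgs9* gave 74.6% of the sum. Other sums also came mostly from a single gene. *Mbp* gave 82.4% for oligodendrocytes, *Vtn* 78.2% for endothelial and mural cells and *Cx3cr1* 61.4% for microglia. For cortex and hippocampus, with 3 of 5 genes in the table, *Nrgn* gave 99.3%. Summed levels of the striatum list ran from 1108 to 2894 in *b6/b6* mice and from 1604 to 3129 in *cast/cast* mice. The part of cell composition in the levels of the potassium channel genes was not tested.

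In slopes on these marker levels, fitted with genotype in limma after the data were seen, 29 of the 64 genes reached an adjusted *P* of 0.05 or lower for the striatum list (19 higher, 29.7%, and 10 lower, 15.6%), beside 51.2% of all genes, with 24.2% higher and 26.9% lower. For the hypothalamus list there were 18 (3 higher, 4.69%, and 15 lower, 23.4%), beside 32.8% of all genes, with 17.3% higher and 15.6% lower. The other 10 lists gave 26 genes for endothelial and mural cells (40.6%, beside 41.3% of all genes), 24 for microglia (37.5%, beside 39.2%), 22 for cortex and hippocampus (34.4%, beside 37.7%), 19 for oligodendrocytes (29.7%, beside 32.3%), 12 for neurons (18.8%, beside 16.6%), 4 for red blood cells (6.25%, beside 9.04%) and 1 for thalamus (1.56%, beside 0.507%). There were none for astrocytes (0% of all genes), pituitary (0%) and choroid plexus (0.00714%). With the mean of log2 marker levels in place of the sum, the striatum list gave 0 (0% of all genes) and the hypothalamus list 22 (34.4%, beside 33.7%). Without the 4 libraries that stand apart they gave 27 (42.2%, beside 39.9%) and 2 (3.12%, beside 1.49%).

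Intake within genotype was compared to ask whether mice of the same genotype that ate more differed in these transcripts. For kcal from the C/P diet, 0 of the 64 genes had a *P* of at most 0.01 in limma, beside 80 of all genes (0.572%), and 1 had a *P* under 0.05, beside 3.72% of all genes. edgeR and DESeq2 also gave 0 genes at 0.01, and 1 and 2 under 0.05, with the shares of all genes not given here. The slope, whether past a threshold or not, was positive for 44 genes and negative for 20, 31.2%, beside 50.1% of all genes. The lowest *P* was that of *Kcna2*, with a slope of 0.033 ± 0.014 log2 per kcal (limma, *P* = 0.022, adjusted *P* = 0.960), which met the threshold without the 4 libraries that stand apart, without *cast/cast* mouse 6, or with colony-number range as a factor. *Kcnj12*, an inward rectifier, had a slope of 0.033 ± 0.019 (0.020 without *cast/cast* mouse 5) and *Kcnq5* one of 0.014 ± 0.0080, with *P* of 0.084 and 0.086 (limma, adjusted *P* = 0.960 for both).

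For total kcal, 2 of the 64 genes met the threshold, both lower in mice that ate more, beside 248 of all genes (1.77%, with 0.893% lower). Neither reached an adjusted *P* of 0.05. *Kcnk10*, a leak channel related to *Kcnk2*, had 2.77 to 30.6 normalized counts with a median of 11.2 in *b6/b6* and 1.87 to 31.8 with a median of 9.89 in *cast/cast* mice. It was highest in *cast/cast* mouse 4, which had the lowest total intake of its genotype, 104.0 kcal. Its slope was -0.065 ± 0.021 log2 per kcal (limma, *P* = 0.0041, adjusted *P* = 0.485).

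*Kcns2*, a modifier subunit, had 2.46 to 53.3 normalized counts with a median of 9.02 in *b6/b6* and 2.15 to 35.5 with a median of 11.1 in *cast/cast* mice. It was lowest in *cast/cast* mouse 1, which had the highest total intake of all, 133.1 kcal. Its slope was -0.074 ± 0.024 log2 per kcal (limma, *P* = 0.0050, adjusted *P* = 0.485). Both genes had low counts, with no more than 3 tag hits in 3 mice for *Kcnk10* and in 2 for *Kcns2*. Without *cast/cast* mouse 4, or with a minimum mean of 20, which leaves these genes out, no potassium channel gene met the threshold in limma, with 5 and 8 genes at a *P* under 0.05. The shares of all genes in these fits are not given here. Without the 4 libraries that stand apart, neither *Kcnk10* (slope -0.056) nor *Kcns2* (-0.051) did.

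*Kcnk3* came next with a slope of -0.037 ± 0.014 (limma, *P* = 0.013, adjusted *P* = 0.485). At a *P* under 0.05 there were 10 potassium channel genes, 9 of them lower in mice that ate more, beside 9.96% of all genes in either direction and 4.96% lower. Over all 64 genes, whether past a threshold or not, 46 slopes were negative, 71.9%, beside 52.2% of all genes.

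The slope on C/P intake differed between the genotypes for 3 potassium channel genes at an adjusted *P* of at most 0.05 in limma, beside 474 of all genes (3.39%). For *Kcnc1* the slope was -0.069 ± 0.018 log2 per kcal in *b6/b6* mice and 0.0066 ± 0.0078 in *cast/cast* mice (adjusted *P* of the difference, 0.0388). For *Kcnk3* the slopes were -0.125 ± 0.037 and 0.032 ± 0.016 (adjusted *P* = 0.0394), and for *Kcnd2*, an A-type pore subunit, -0.132 ± 0.036 and 0.016 ± 0.016 (adjusted *P* = 0.0404).

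All 3 were highest in *b6/b6* mouse 12, at 2233 normalized counts for *Kcnc1*, 459 for *Kcnk3* and 567 for *Kcnd2*, and this mouse had the lowest C/P intake, 27.4 kcal. It is also a library that stands apart. Without it, no gene of the whole table had slopes that differed at this threshold in limma, with 6 potassium channel genes at an unadjusted *P* under 0.05 (9.38%, beside 6.98% of all genes) in place of 14 (21.9%, beside 22.1%), and the differences became 0.053, 0.146 and 0.097 log2 per kcal. None of the 3 passed without the 4 libraries that stand apart or with 2 principal components as covariates, where 11 and 2 genes had an unadjusted *P* under 0.05 (17.2% and 3.12%, beside 12.6% and 6.81% of all genes). The number was also 0 without *cast/cast* mouse 5 or 12, or *b6/b6* mouse 3, 9 or 11, and 1 without *cast/cast* mouse 3 or 7 or *b6/b6* mouse 2. For total intake 0 potassium channel genes reached an adjusted *P* of 0.05 in limma, edgeR or DESeq2, and of all genes 1 did in limma (0.00714%). At an unadjusted *P* under 0.05 there were 15 in each (23.4%), beside 19.9%, 19.5% and 23.1% of all genes.

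**Figure D4:**
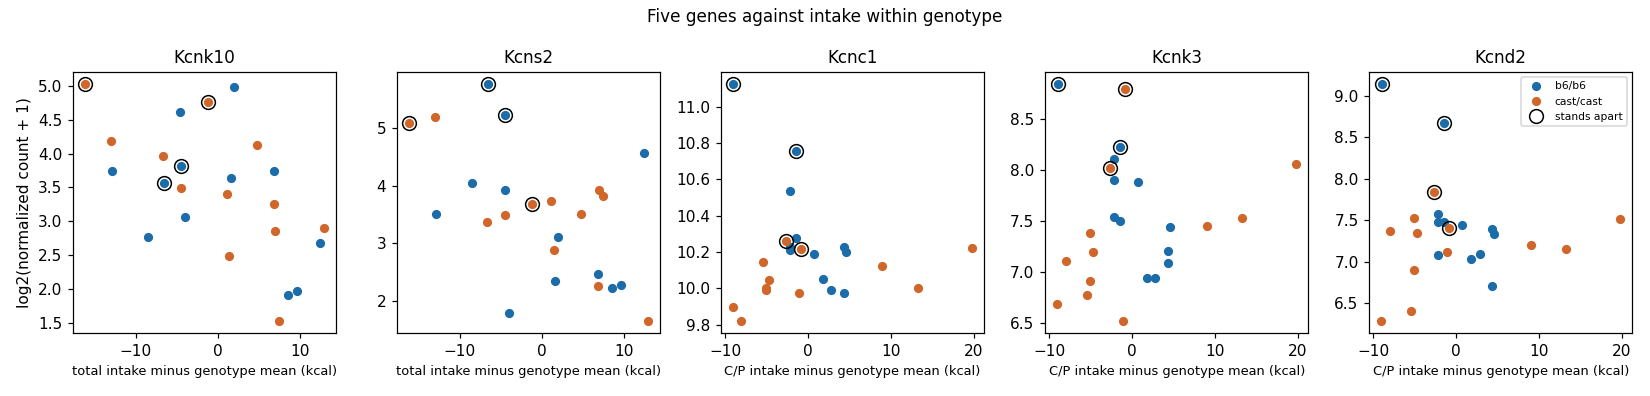
Log2(normalized count + 1) (vertical axes) of *Kcnk10* and *Kcns2* against total intake and of *Kcnc1*, *Kcnk3* and *Kcnd2* against C/P intake, each as kcal from the genotype mean, for 24 mice coloured by genotype and ringed where the library stands apart. *b6/b6* mouse 12, at 27.4 kcal of C/P diet, is the leftmost *b6/b6* point and the highest point of the last 3 plots.

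Subunits known to assemble with each other were compared over mice, with genotype means removed. Of 15 listed pairs, 13 could be run, since *Kcnj3* was not in the table used here. By permutation within genotype (100000 resamples, two-sided), 5 pairs reached an adjusted *P* of 0.05 or lower by Pearson's r over the 13, of which 4 were positive, and 1 by Spearman's rho. The 3 pairs described next did so by r alone. The median r was 0.15 over the 13 pairs and 0.044 over all 2016 pairs of the 64 genes.

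*Kcna1* and *Kcna2*, which meet in axonal channels, had an r of 0.54 and a rho of 0.36 (permutation *P* = 0.00739 and 0.0900, adjusted *P* = 0.0240 for r), and an r of 0.59 without the 2 farthest mice. Their r was -0.20 among *b6/b6* mice and 0.89 among *cast/cast* mice, and 0.45 and 0.42 with 2 principal components removed. Whether it differs between the genotypes was not tested.

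*Kcnd2* and *Dpp6*, an auxiliary protein of A-type channels, had an r of 0.54 and a rho of 0.26 (permutation *P* = 0.0159 and 0.222, adjusted *P* = 0.0415 for r). Without the 2 farthest mice r was -0.0087, so with only genotype means removed the relation rests on them. With 2 principal components removed, r was 0.56, and 0.54 without the 2 farthest, with a rho of 0.63 (permutation, adjusted *P* = 0.0738 for r and 0.0156 for rho). *Kcnd3* and *Dpp10*, a relative of *Dpp6*, were negatively related, with an r of -0.59 and a rho of -0.41 (permutation *P* = 0.00414 and 0.0563, adjusted *P* = 0.0179 for r), and an r of -0.40 without the 2 farthest mice. With 2 principal components removed, 0 of the 13 pairs reached an adjusted *P* of 0.05 by r and 2 did by rho in the permutation tests, *Kcnd2* with *Dpp6* and *Kcnj10* with *Kcnj16*, and *Kcnd3* with *Dpp10* turned positive, at 0.47.

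The other 8 pairs missed the threshold by r. *Kcna2* with *Kcnab2* had an r of 0.45 and *Kcnma1* with *Kcnmb4* one of -0.41 (permutation, adjusted *P* = 0.0603 for both). The pore subunit *Kcnj11* and its receptor *Abcc8* had an r of 0.15 (permutation, adjusted *P* = 0.542), *Kcnq3* and *Kcnq5* one of 0.023, *Kcnj6* and *Kcnj9* one of -0.21, and *Kcnj10* and *Kcnj16* one of -0.27. For *Kcnj11* and *Abcc8* r was 0.62 among *b6/b6* and -0.25 among *cast/cast* mice, a difference that was not tested. With 2 components removed their r was 0.50 and their rho 0.45 (permutation, adjusted *P* = 0.0738 and 0.112). With libraries rescaled, *Kcnma1* and *Kcnmb4* passed, with an r of -0.50 (permutation, adjusted *P* = 0.0285). With 2 components removed *Kcnj10* and *Kcnj16* had a rho of 0.60 (permutation, adjusted *P* = 0.0156), an r of 0.21 and an r of 0.87 without the 2 farthest mice.

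**Figure D5:**
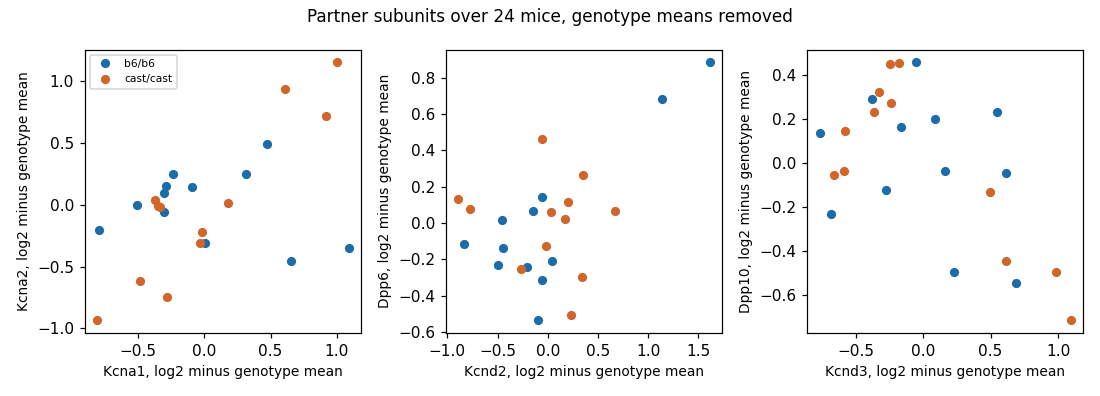
Log2(normalized count + 1) minus the genotype mean of 3 subunit pairs with an adjusted *P* of at most 0.05, for 24 mice coloured by genotype. *Kcna1* and *Kcna2* follow each other in *cast/cast* mice (r of 0.89), and for *Kcnd2* and *Dpp6* 2 *b6/b6* mice lie far from the other points.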

How the data were processed

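SAGE-Seq libraries of hypothalamus from 24 mice were grouped by the genotype in the labels. The deposited signal of a gene in a mouse is its number of aligned tags (SOLiD SAGE software, RefSeq mRNA and GRCm38/mm10), scaled by the authors with a size factor for each sample from DESeq. The deposited table also has the authors' own comparison columns, a fold ratio, its log2 and p-values, which were not used. Of 19529 rows, repeats of a gene were identical, which left 13998 genes. All values were whole multiples of 1 step per library (within 0.02), so tag hits were recovered. No library was a copy of another (lowest chi-square per degree of freedom 14.6 over 276 pairs). Floors of 3 hits cover counting error only.

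All 13998 genes passed the minimum mean of 5 and entered limma 3.58.1 (lmFit, trended eBayes) with a pseudocount of 1 on the log2 scale and Benjamini-Hochberg adjustment over them. Intake was centred within genotype. The tools were tested on simulated data. The potassium channel genes, families, partners, pairs and marker lists were chosen with earlier results of these data known. Genes were named if they met the genotype threshold (none), had the 10 lowest genotype *P*, were the 2 most abundant of a family, had the 3 lowest *P* for an intake slope or the 3 largest or smallest SD at a mean of at least 50, or belonged to a subunit pair, with *Abcc8*. Some genes that this rule names, and pairs that hold them, stayed in the fits and counts but are not reported here. Genes named for the difference of slopes, r with the component or a low mean, and *Hcn4*, were chosen after their values were seen. So were the markers named for their share of a sum, *Rgs9*, *Pmch*, *Mbp*, *Vtn*, *Cx3cr1* and *Nrgn*. Alternatives comprised other pseudocounts (0.5, 5), minimum mean 20, rescaled libraries, edgeR 4.0.16, DESeq2 1.42.0, covariates (study number, colony-number range, 2 principal components), subsets of mice and other thresholds. Python 3.11.15 and R 4.3.3 were used.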

Additional observations from a re-analysis of the deposited data

Results flagged for a closer look

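The slope on C/P intake differed between the genotypes, by the interaction term in limma, for *Kcnc1* (0.076 log2 per kcal, *cast/cast* minus *b6/b6*), *Kcnk3* (0.157) and *Kcnd2* (0.148). All 3 adjusted *P* lay between 0.0388 and 0.0404, and 3.39% of all genes had an adjusted *P* of at most 0.05. None of the 3 passed without *b6/b6* mouse 12, which had the lowest C/P intake and the highest value of each gene, and neither did any other gene. Without this mouse the difference was 0.146 for *Kcnk3*, 0.053 for *Kcnc1* and 0.097 for *Kcnd2* (limma, unadjusted *P* = 0.018, 0.057 and 0.080).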

How the results depend on the processing

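No paired analysis was possible because the labels give the mice no replicate numbers shared between genotypes.

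No potassium channel gene met the genotype threshold under any alternative run, and leaving out each mouse in turn gave 0 to 0. Of the genes named for their genotype *P*, *Kcnd2* reversed to 0.0065 among mice with colony numbers 25014 to 26001 and to 0.0038 with 2 principal components. For the C/P slope 1 gene (*Kcna2*) was called with colony-number range as a factor and 1 without the 4 libraries that stand apart, and leaving out each mouse gave 0 to 1. For the total intake slope the count of 2 became 0 with a minimum mean of 20 and 0 by adjusted *P*, and 1 with colony-number range (*Kcnip1*), with 2 components (*Kcnj5*) and without the 4 libraries (*Kcnip1*). Leaving out each mouse gave 0 to 5, with 0 without *cast/cast* mouse 4, 1 without *cast/cast* mouse 1 or 5 or *b6/b6* mouse 11, 4 without *cast/cast* mouse 6 or *b6/b6* mouse 2 or 7, and 5 without *b6/b6* mouse 1. The shares of all genes in these fits of the C/P and total intake slopes are not given here. These counts are therefore not read as particular to the potassium channel genes. For the difference of C/P slopes the count of 3 became 5 with DESeq2 (7.81%, beside 9.37% of all genes), 0 without the 4 libraries and 0 with 2 components, and 0 to 4 leaving out each mouse. That of total intake slopes stayed at 0.

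Of marker slopes, alternatives were run for 2 lists. With 2 components both gave 0, without the 4 libraries the hypothalamus list gave 2, and with mean log2 levels the striatum list gave 0. Leaving out each mouse gave 13 to 23 for the hypothalamus and 27 to 33 for the striatum list. The shares of all genes then ran from 19.7% to 37.9% and from 47.6% to 52.5%.

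The number of subunit pairs by r, 5, became 0 with 2 components removed, 2 without the 4 libraries, 4 with study number removed and 6 with rescaled libraries. By rho it was 1, and 2 with components or study number removed. With components removed r reversed for *Kcnd3* and *Dpp10* (0.47), *Kcnma1* and *Kcnmb4* (0.031), and *Kcnj10* and *Kcnj16* (0.21). With study number removed r of *Kcnq3* and *Kcnq5* was -0.024. Without the 4 libraries r of *Kcnq3* and *Kcnq5* was -0.010 and that of *Kcnd2* and *Dpp6* -0.098. The cause of these changes was not tested. Genes with few tag hits have wide intervals.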
